A study of Homo sapiens with 6 samples.

Results

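Messenger RNA levels of 7 genes around the tumour suppressor p53 were followed in A375 cells treated with BMH-21. They were MDM2, PPM1D, CCNG1, USP7 and RCHY1, whose products restrain p53 or act on the proteins that do, and TP63 and TP73, the relatives of p53. The members were chosen by gene symbol, and all 7 had a row among the 25548 gene rows of the deposited table. The p53 gene itself is not one of them and is not analysed here. A375 is an established human melanoma cell line, and BMH-21 is a compound known to shut down RNA polymerase I, which copies ribosomal DNA into RNA. The labels give 3 samples with the drug at 1 µM for 6 h and 3 controls with DMSO, the solvent, all grown with serum. The controls are titled 0 h, so the drug and the further 6 h of culture cannot be told apart. The table holds FPKM (fragments mapped to a gene, scaled by transcript length and library size), a level per length that allows genes to be compared with each other. Although the columns of each group are titled as replicates 1 to 3, the first was the mean of the other columns in 99.9% of the control rows without a 0, and likewise with BMH-21.

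The columns are therefore given as 1 estimate per group and its bounds. No value of a single library, no spread between replicates and no p-value can be had from them, and the sequencing depth and the confidence level of the bounds are unknown. Groups whose bounds do not overlap are called separate, which describes the table and is not a test. The 6 markers of the melanoma line that reached 1 FPKM included SOX10, at 97.0 FPKM in control and 90.0 FPKM with BMH-21, and MIA, at 343 and 298 FPKM, while the pigment genes TYR, MLANA, PMEL and DCT were below 1 FPKM in both groups. Separate bounds were found for MITF (8.06 FPKM in control, 5.31 with BMH-21) and S100B (28.7 and 17.8 FPKM), both lower. Among all rows that reached 1 FPKM in either group, 3.41% were separate and lower. The median log2 difference of the 6 markers was -0.36. With overlapping bounds, S100A1 was lower as well (33.2 and 22.7 FPKM), while PAX3 alone had a higher estimate (7.02 and 8.19 FPKM).

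p53 is held at a low level in unstressed cells because MDM2, a RING-type ubiquitin ligase, marks it for degradation. p53 in turn activates transcription of MDM2, which closes a negative feedback loop, and of PPM1D and CCNG1, whose products also dampen p53. When ribosome production fails, ribosomal proteins released from the nucleolus bind MDM2 and stop it from degrading p53. p63 and p73 bind DNA sites like those of p53, and each gene has an internal start site that gives a shorter form able to oppose p53.

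MDM2 has an upstream promoter and an internal one, the latter known from textbooks to carry the p53 response elements of the feedback loop. RefSeq start-site windows (GRCh38.p14, 250 bases before to 50 bases after each start) were found for all 7 members, 18 windows in total. They were searched for the p53 response element consensus, a pair of adjacent half-sites of 10 bases each with no spacer, allowing at most 3 mismatches in 20 bases. The consensus reads the same on both strands, so 1 search covers both. The limit of 3 was set knowing the MDM2 elements. Among all 35116 windows of that length, 0.649% held a match with at most 2 mismatches and 5.20% one with at most 3. Matches lay in 3 of the members' 18 windows, belonging to 2 genes, MDM2 and TP73. Of all genes with a window, 0.820% held a match with at most 2 mismatches and 6.39% one with at most 3. The sequences below show the matches in capitals, together with an upstream MDM2 window and the PPM1D window, which had none.
MDM2 internal start, chr12:68808767-68809066, plus strand: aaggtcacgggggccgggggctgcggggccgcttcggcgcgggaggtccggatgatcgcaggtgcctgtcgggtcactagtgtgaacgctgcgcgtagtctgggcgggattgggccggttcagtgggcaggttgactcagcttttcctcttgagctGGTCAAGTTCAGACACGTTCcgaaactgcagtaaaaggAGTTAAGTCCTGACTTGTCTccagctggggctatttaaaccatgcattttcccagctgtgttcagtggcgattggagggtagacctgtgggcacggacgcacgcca
MDM2 upstream start, chr12:68807922-68808221, plus strand: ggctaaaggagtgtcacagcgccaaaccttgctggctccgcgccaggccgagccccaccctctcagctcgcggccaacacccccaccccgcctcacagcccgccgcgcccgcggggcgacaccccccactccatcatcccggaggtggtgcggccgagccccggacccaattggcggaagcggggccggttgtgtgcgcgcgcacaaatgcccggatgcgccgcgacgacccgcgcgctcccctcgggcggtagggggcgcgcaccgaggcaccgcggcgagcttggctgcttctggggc
TP73 internal start, chr1:3690422-3690721, plus strand: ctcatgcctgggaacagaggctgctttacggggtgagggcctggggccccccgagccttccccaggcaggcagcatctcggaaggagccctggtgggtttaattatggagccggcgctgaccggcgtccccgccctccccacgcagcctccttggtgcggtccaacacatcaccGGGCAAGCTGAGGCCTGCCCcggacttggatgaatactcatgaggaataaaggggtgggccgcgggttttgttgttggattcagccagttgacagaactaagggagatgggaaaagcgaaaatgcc
PPM1D start, chr17:60599943-60600242, plus strand: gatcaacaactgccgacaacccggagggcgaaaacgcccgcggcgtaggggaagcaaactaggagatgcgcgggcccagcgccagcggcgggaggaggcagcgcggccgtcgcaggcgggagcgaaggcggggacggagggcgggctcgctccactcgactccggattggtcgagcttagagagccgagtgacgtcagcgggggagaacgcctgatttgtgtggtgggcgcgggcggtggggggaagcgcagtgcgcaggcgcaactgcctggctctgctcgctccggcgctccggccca

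The internal MDM2 window held 2 matches, the first (chr12:68808923-68808942) with 2 mismatches and the second (chr12:68808961-68808980) with 3. Another MDM2 window, shifted by a few bases, held the same sites. The closest stretch in the upstream MDM2 windows had 5 mismatches. The internal TP73 window held 1 match with 2 mismatches (chr1:3690596-3690615). The closest stretch had 4 mismatches in PPM1D, USP7 and TP63, 5 in RCHY1 and 6 in CCNG1. TP63 had only 1 window, so its upstream and internal starts were not both searched. These letters describe the windows only. Sites with a spacer or further from the start were not searched, and the FPKM of a gene does not say which start was used.

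MDM2 was the member furthest above control. Its level was 34.6 FPKM in control (bounds 28.4 to 40.8) and 315 FPKM with BMH-21 (bounds 258 to 373). The bounds were far apart, and the ratio of the estimates was 9.12, or 6.33 to 13.1 when opposite bounds are set against each other. The difference of log2(FPKM + 1), BMH-21 minus control, was 3.15 ± 0.37, where the second value is a half-width that joins the bounds of control and BMH-21. Of the 12758 rows that reached 1 FPKM in either group, short RNA genes left out, 5 other rows had a larger log2 difference, MDM2 being at rank 6. By level, MDM2 stood at rank 2324 in control and at rank 230 with BMH-21.

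PPM1D encodes WIP1, a phosphatase of the PPM family that removes phosphates from p53, from its kinases and from MDM2. It was at 7.89 FPKM in control (bounds 6.38 to 9.41) and at 21.3 FPKM with BMH-21 (bounds 17.5 to 25.2). The bounds were separate, with a ratio of 2.70 (1.86 to 3.95 between opposite bounds) and a log2 difference of 1.33 ± 0.35. This placed it at rank 59 by log2 difference. The absolute gain was 13.4 FPKM, against 281 FPKM for MDM2.

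CCNG1 encodes cyclin G1, which brings protein phosphatase 2A to MDM2. It was at 105 FPKM in control (bounds 86.2 to 124) and 146 FPKM with BMH-21 (bounds 121 to 171). The bounds overlapped by a small margin. The ratio of 1.39 (0.973 to 1.98 between opposite bounds) gave a log2 difference of 0.47 ± 0.36, which exceeded its half-width, while under quantile normalization it was 0.35 and just below its half-width of 0.36. Among all ranked rows, 5.02% had a larger log2 difference than CCNG1.

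USP7 encodes the deubiquitinase HAUSP, which takes ubiquitin off both MDM2 and p53. It was at 33.9 FPKM (bounds 27.8 to 40.0) in control and 36.6 FPKM (bounds 30.0 to 43.1) with BMH-21. RCHY1 encodes PIRH2, another RING-type ligase for p53. It was at 4.47 FPKM (bounds 3.55 to 5.39) in control and 4.89 FPKM (bounds 3.94 to 5.83) with BMH-21. In both genes the bounds overlapped over most of their range, and the log2 differences, 0.11 ± 0.36 for USP7 and 0.11 ± 0.34 for RCHY1, were smaller than their half-widths. Between opposite bounds the ratio of USP7 could lie from 0.750 to 1.55 and that of RCHY1 from 0.731 to 1.64, so equal levels are not shown.

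Among the members that reached 1 FPKM, TP73 alone had a lower estimate with BMH-21 than in control. It was at 2.94 FPKM in control (bounds 1.94 to 3.93) and 1.51 FPKM with BMH-21 (bounds 0.925 to 2.10). The bounds overlapped narrowly, the log2 difference was -0.65 ± 0.51, and the ratio of 0.516 ranged from 0.235 to 1.08 between opposite bounds. Its bounds were wide, extending 33.9% of the estimate to either side in control and 38.9% with BMH-21, against 18.0% and 18.1% for MDM2. The row TP73-AS1, named as antisense to TP73, was at 4.33 FPKM in control and 3.73 FPKM with BMH-21, with overlapping bounds. The library kit keeps strand, but no source used here says whether counting used it.

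TP63 was close to 0. It was listed at 0.0299 FPKM in control (bounds 0 to 0.0839) and 0.0113 FPKM with BMH-21 (bounds 0 to 0.0577), and no ratio is given. Of 12 keratinocyte genes listed beside it, 5 reached 1 FPKM in at least 1 group. None of these 5 had separate bounds on the authors' scaling, against 7.50% of all measured rows in either direction. Their median log2 difference was -0.06. KRT5, a keratin of basal keratinocytes, was listed at 0.0623 and 0.0502 FPKM. The keratin gene KRT14 was at 1.64 and 2.16 FPKM and PERP at 15.8 and 15.2 FPKM, both with overlapping bounds. The summed level of the 12 was 114 FPKM in control and 104 FPKM with BMH-21, most of it from the integrin gene ITGA6 (85.0 and 77.2 FPKM). DSC3 had the highest log2 difference of the 5 (1.24 FPKM in control, 1.80 with BMH-21) and the integrin gene ITGB4 the lowest (9.52 and 6.57 FPKM), whose bounds became separate under the other scalings. Of 9 markers of multiciliated cells, whose differentiation needs p73, only RFX3 (3.26 and 4.58 FPKM) and CCNO (7.36 and 7.14 FPKM) reached 1 FPKM, both with overlapping bounds (median 0.18), and FOXJ1 was listed at 0.0763 and 0.121 FPKM.

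**Figure D1:**
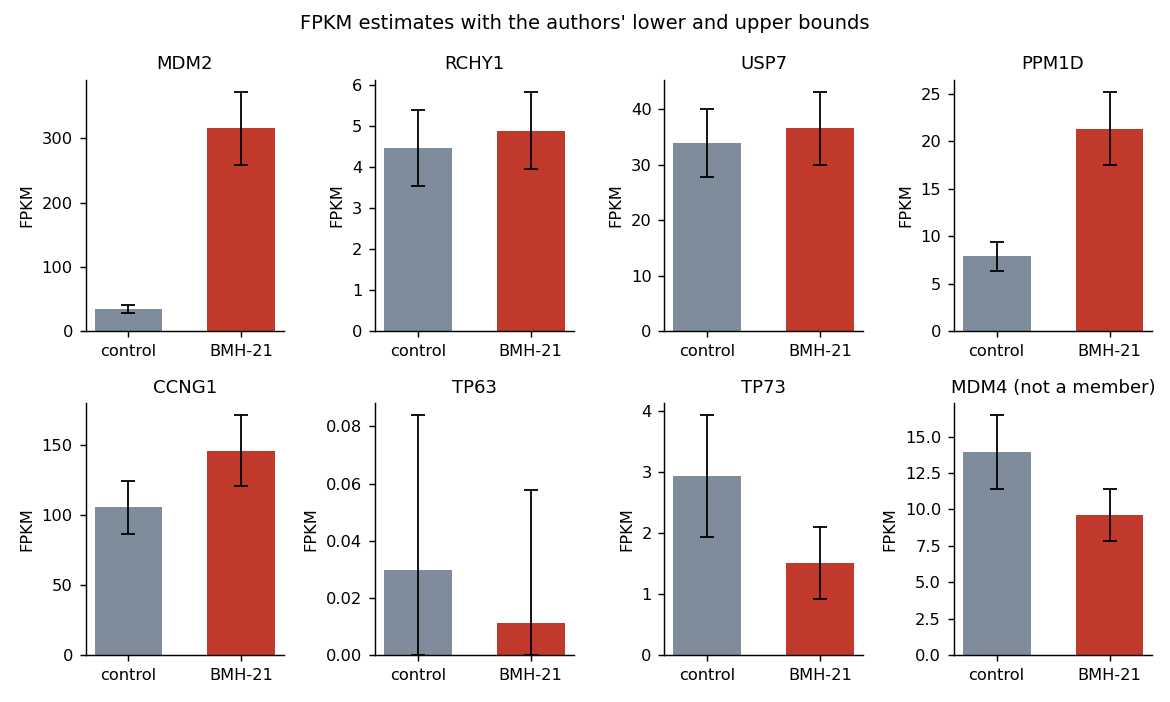
FPKM estimates (bars) and the authors' lower and upper bounds (whiskers) in control and with BMH-21 for the 7 members and MDM4, each panel on its own axis from 0. MDM2 and PPM1D are separate between the groups, and the other members overlap.

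Counted together, 2 of the 6 members at 1 FPKM or more were separate and higher with BMH-21, where the background was 4.08% of 13074 measured rows, and 0 were separate and lower, where the background was 3.41%. The same 2 members were at least 2-fold higher by the ratio of the estimates, against 2.52% of measured rows, and none was at least 2-fold lower, against 1.38%. The median log2 difference was 0.29 over the 6 members and 0.04 over all measured rows. TP73 lay just inside the 2-fold line, and its ratio fell to 0.497 when the groups were scaled by their median ratio and to 0.493 when scaled to equal totals without short RNAs, with overlapping bounds in each case.

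**Figure D2:**
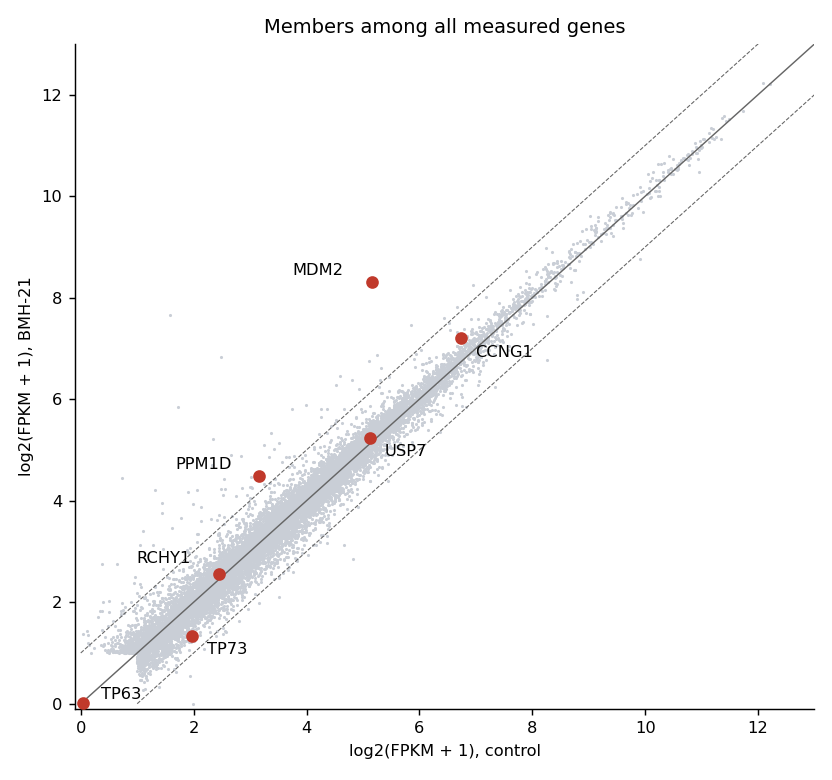
Level of each gene as log2(FPKM + 1) in control (horizontal) and with BMH-21 (vertical). Grey points are the 12758 rows that reached 1 FPKM in either group, without short RNAs, red points the members (TP63, below that minimum, is added), the solid line marks equality and the dashed lines a difference of 1 on this scale. MDM2 and PPM1D lie above the upper dashed line.

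The order of the levels differed between the groups. In control CCNG1 was highest, 3.04-fold above MDM2, followed by MDM2 and USP7, which were nearly level at 34.6 and 33.9 FPKM, then PPM1D, RCHY1, TP73 and TP63. Of the 6 pairs of neighbours in this order, 4 were apart by their bounds, while MDM2 and USP7, and RCHY1 and TP73, overlapped. With BMH-21 MDM2 was highest, 2.16-fold above CCNG1, the other members kept their order, and all 6 pairs of neighbours were apart. The level of the 7 members summed to 189 FPKM in control, of which MDM2 made up 18.3%, and to 526 FPKM with BMH-21, of which it made up 60.0%.

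The ratio of MDM2 to its partners differed accordingly. MDM4, the nearest relative of MDM2, binds p53 and forms a pair with MDM2, and it was at 13.9 FPKM in control (bounds 11.4 to 16.5) and 9.64 FPKM with BMH-21 (bounds 7.86 to 11.4). Its bounds overlapped by a narrow margin on the authors' scaling and were separate and lower under each of 3 other scalings. MDM2 stood 2.49-fold above MDM4 in control (1.73 to 3.59 between opposite bounds) and 32.7-fold with BMH-21 (22.6 to 47.4). Relative to USP7 the level of MDM2 was 1.02-fold in control and 8.63-fold with BMH-21. Relative to PPM1D it was 4.38-fold and 14.8-fold, and relative to RCHY1 7.74-fold and 64.6-fold.

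CCNG2, the nearest relative of CCNG1, was at 5.11 FPKM in control and 5.84 FPKM with BMH-21, with overlapping bounds. CCNG1 was 20.6-fold above it in control and 25.0-fold with BMH-21, ranges that overlapped (14.0 to 30.4 and 17.3 to 36.4 between opposite bounds). None of the 12 measured cyclin G relatives and protein phosphatase 2A subunits was separate, against 7.50% of all measured rows in either direction. Their median log2 difference was 0.14. The highest was the catalytic subunit gene PPP2CB, at 19.7 FPKM in control and 25.4 FPKM with BMH-21, and the lowest was the cyclin gene CCNI, at 64.2 and 55.8 FPKM.

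The other phosphatase genes of the PPM family were read beside PPM1D. None of the 12 measured ones was separate, against 7.50% of all measured rows in either direction, and the median log2 difference was 0.06. The extremes were PPM1E, at 1.40 FPKM in control and 2.11 FPKM with BMH-21, and PPM1M, at 10.3 and 7.35 FPKM. The log2 difference of PPM1E was 0.37 ± 0.95, and PDP1 lay close to it at 0.36 ± 0.36 (51.7 and 66.5 FPKM). Among 15 kinases of the pathway and substrates of PPM1D, 1 was separate and higher, 1 was separate and lower, 12 overlapped and 1 had bounds that do not hold its estimate and was not called (median 0.09). A single gene in each direction says little beside the 4.08% higher and 3.41% lower among all measured rows. The higher one was XPC, a damage sensor of nucleotide excision repair and itself a p53 target, at 16.4 FPKM in control and 31.4 FPKM with BMH-21. The lower one was H2AFX, the histone variant whose phosphorylated form marks DNA breaks and is a substrate of PPM1D, at 160 FPKM in control (bounds 131 to 190) and 74.4 FPKM with BMH-21 (bounds 60.9 to 87.9), or 2.15-fold lower.

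Other ubiquitin ligases and deubiquitinases that act on p53 or MDM2 were listed to set MDM2, RCHY1 and USP7 in context. Of 21 measured genes none was separate on the authors' scaling, where 7.50% of all measured rows were separate in either direction. The log2 difference was positive in 13 and negative in 8, and the median was 0.04, or -0.01 when scaled by the median ratio. The highest was the deubiquitinase gene USP11, at 49.5 FPKM in control and 66.0 FPKM with BMH-21, and the lowest was DTL, a substrate receptor of a cullin ligase, at 18.5 and 11.0 FPKM. Among 11 measured partners and substrates of USP7, 1 was separate and lower, against 3.41% of all measured rows, and 10 overlapped (median -0.13). That one was UHRF1, a factor in the maintenance of DNA methylation, at 65.3 FPKM in control (bounds 53.6 to 77.0) and 44.0 FPKM with BMH-21 (bounds 36.1 to 51.8).

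Beside the feedback genes stood the p53 targets that arrest, kill or repair. Of 26 measured genes on this list, none of them a member, 24 were separate and higher, against 4.08% of all measured rows. On the same list 0 were separate and lower, against 3.41%, and 2 overlapped, with a median log2 difference of 1.56. The 4 furthest above control by log2(FPKM + 1) were GDF15, a stress cytokine (2.32 FPKM in control, 56.3 with BMH-21), CDKN1A, the cell cycle inhibitor p21 (33.5 and 329 FPKM), BTG2, an antiproliferative gene (4.05 and 36.1 FPKM), and SESN1, a sestrin that restrains mTORC1 (4.03 and 25.1 FPKM), although EDA2R, with a ratio of 7.37, exceeded SESN1 (6.23) by the ratio of the estimates. The log2 difference of MDM2 lay between those of CDKN1A (3.26) and BTG2 (2.87), and that of PPM1D lay next to that of ZMAT3 (1.34), an RNA-binding protein gene. CCNG1, itself a known p53 target, lay between the 2 overlapping genes of the list, TP53I3 (0.29) and SFN (0.15), and its lowest separate gene, CYFIP2 (0.72). The p53 target list was drawn from textbook knowledge when its high values in these data were already known, so it gives no independent support.

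**Figure D3:**
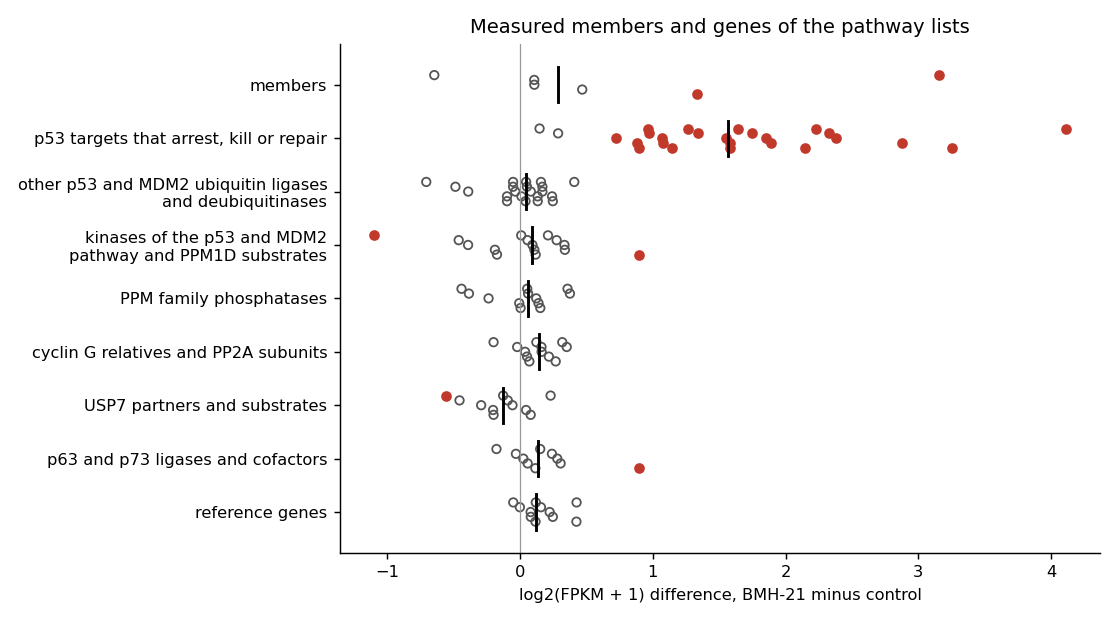
Difference of log2(FPKM + 1), BMH-21 minus control, for the 6 measured members and the measured genes of 8 lists, 1 circle per gene. Filled red circles are genes with separate bounds, open circles the other genes, and the black bars are medians, 1.56 for the p53 targets and between -0.13 and 0.14 for the other lists.

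The genes closest to each member on the plane of control and BMH-21 levels were found by Euclidean distance on log2(FPKM + 1), a likeness over only 2 groups. CDKN1A was closest to MDM2, at a distance of 0.07, and the next genes were far, TMEM2 at 1.10 and SAT1, which encodes a polyamine acetyltransferase, at 1.44. Closest to PPM1D were the death receptor gene TNFRSF10A (7.75 FPKM in control, 20.8 with BMH-21), RNF19B (8.33 and 20.9 FPKM) and CIITA, the activator of MHC class II genes (7.10 and 21.1 FPKM). CCNG1 lay beside YWHAG, ATP6V0B and LOC100507303 at distances of 0.07 to 0.13, and USP7 beside LOC100652958, REPIN1 and RECQL at 0.01 each. RCHY1 lay beside ASPHD1, ZFP90 and CCDC66, and TP73 beside HGSNAT, RAB40B and FAM86C2P, the last 3 at distances of 0.05.

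The nearest gene with a row in the table on each side of each member, by RefSeq order, was read in the same way. Of these 14 genes 12 were measured, and 1 of the 12, or 8.33%, was separate, near the 7.50% of all measured rows that were separate in either direction. It was CPM, which encodes the membrane enzyme carboxypeptidase M and follows MDM2 on chromosome 12 on the opposite strand. CPM was at 0.561 FPKM in control (bounds 0.415 to 0.707) and 5.75 FPKM with BMH-21 (bounds 4.67 to 6.84). It counted as measured through the BMH-21 group alone. The ratio was 10.3 (6.60 to 16.5 between opposite bounds). MDM2 was 61.7-fold above CPM in control (40.2 to 98.4 between opposite bounds) and 54.8-fold with BMH-21 (37.8 to 79.8). SLC35E3, on the other side of MDM2, was at 10.5 FPKM in control and 12.2 FPKM with BMH-21, with overlapping bounds. Whether reads of MDM2 contribute to the CPM row was not tested.

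Around PPM1D, APPBP2 was at 9.44 FPKM in control and 12.7 FPKM with BMH-21 and BCAS3 at 7.03 and 5.72 FPKM, both overlapping. USP7 lies between CARHSP1, at 33.4 FPKM in control and 25.2 FPKM with BMH-21, and C16orf72, at 20.7 and 28.0 FPKM, which also overlapped. THAP6 lies beside RCHY1 on the opposite strand, at 4.16 FPKM in control and 4.31 FPKM with BMH-21, and NUDCD2 beside CCNG1, at 32.2 and 32.9 FPKM. The other measured neighbours were LOC100506253 beside RCHY1 (1.00 and 0.901 FPKM), LEPREL1 beside TP63 (1.73 and 2.36 FPKM), and WRAP73 (30.9 and 28.2 FPKM) and TP73-AS1 beside TP73.

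**Figure D4:**
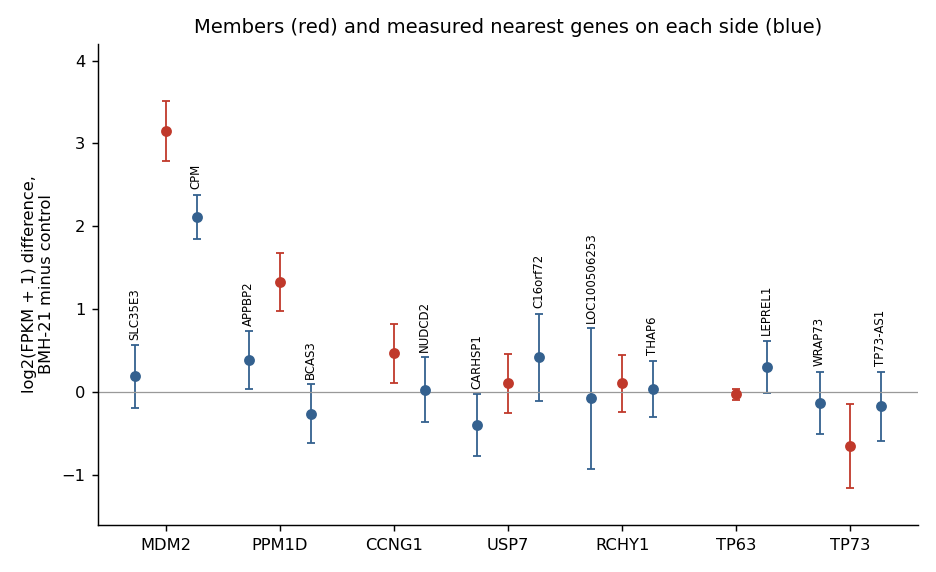
Difference of log2(FPKM + 1), BMH-21 minus control, for the 7 members (red) and the 12 measured genes nearest to them on either side (blue), with the half-width combined from the authors' bounds as whiskers. CPM, beside MDM2, is the 1 measured neighbour with separate bounds.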

How the data were processed

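The authors deposited 1 table of FPKM values for 25548 genes, with 3 columns per group. TopHat2, Cuffdiff 2.0 and GRCh37 appear in the submitters' processing notes without role or settings, no source used here names the gene annotation, and per the labels' protocols RNA came from Trizol extraction and an Illumina stranded total RNA kit. Columns were read as estimate, lower and upper bound because of the midpoint relation (relative tolerance 0.0001), so no limma fit was possible. Rows that reached 1 FPKM in either group were called measured (13074, of which 316 were short RNA rows recognised by symbol). In 11 measured rows the estimate lay outside its bounds, and these were called neither separate nor overlapping. Differences used log2(FPKM + 1), which understates the change of low genes. The half-widths of control and BMH-21 on that scale were added in quadrature. The calling code was checked on simulated data made from the control columns without noise, which does not measure how often calls are wrong. Named genes were the members, up to 4 separate genes per list and direction or, where none was separate, the extremes, the 3 nearest genes, the chromosomal neighbours, MDM4 and CCNG2. Some marker genes were named after their values were seen (KRT5, KRT14, PERP, FOXJ1, ITGA6, SOX10, PAX3, S100A1, MIA and the pigment genes). The same holds for PDP1, TP73-AS1 and the p53 targets ZMAT3, TP53I3, SFN, CYFIP2 and EDA2R. The members and lists were chosen with earlier results of these data known. Gene order and the start-site windows came from RefSeq (GRCh38.p14). The coordinates printed are those of that build and were joined to the table by symbol. For neighbours whose symbol had no row, a RefSeq synonym was used. Among the measured neighbours this gave C16orf72 (RefSeq symbol HAPSTR1), LEPREL1 (P3H2) and TP73-AS1 (GFOD3P). Python 3.11.15 and pandas 2.3.3 were used.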

Additional observations from a re-analysis of the deposited data

How the results depend on the processing

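MDM2 and PPM1D stayed higher with separate bounds, and CCNG1, USP7, RCHY1 and TP73 stayed overlapping, under scaling by the median ratio, quantile normalization and scaling to equal totals without short RNAs. Across these and pseudocounts of 0.1 and 0.01 no member's log2 difference changed by more than its half-width except that of TP63. It went from -0.03 ± 0.07 to -0.22 ± 0.55 with a pseudocount of 0.1 and to -0.90 ± 2.12 with 0.01. Each of these TP63 differences was smaller than its own half-width. A minimum of 5 FPKM left 9500 rows in place of 13074. Of these, 283 rows in place of 446 were separate and lower, 207 in place of 330 were at least 2-fold higher and 80 in place of 180 at least 2-fold lower. With no minimum, over all 25548 rows, the 2-fold counts were 1217 higher and 3885 lower. The rows added there were below 1 FPKM in both groups. Scaling by the median ratio gave 448 separate higher and 536 separate lower rows, against 534 and 446. At 5 FPKM or more only 3 pairs of neighbouring members remain, of which 2 in control and 3 with BMH-21 were apart, because fewer members were compared. No list median moved by more than the median half-width of its genes. The separate and lower genes numbered 2 rather than 1 among USP7 partners under scaling by the median ratio, with MCM10 added. Under that scaling and quantile normalization, MDM4 among the ligases and ITGB4 among the keratinocyte genes also became separate and lower. MDM4, ITGB4 and MCM10 were separate and lower under scaling to equal totals without short RNAs. No paired analysis was possible because the columns are not single libraries, and for the same reason no replicate could be left out. The depth behind the values is unknown.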

Other observations

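Among 10 measured ligases and cofactors of p63 and p73, 1 was separate and higher, against 4.08% of all measured rows, and 9 overlapped (median log2 difference 0.13). It was FBXW7, the substrate receptor of an SCF ubiquitin ligase, at 5.70 FPKM in control (bounds 4.58 to 6.81) and 11.5 FPKM with BMH-21 (bounds 9.33 to 13.6). The lowest was the kinase gene ABL1, at 21.8 FPKM in control and 19.1 FPKM with BMH-21. None of 11 reference genes was separate, against 7.50% of all measured rows in either direction (median 0.12). YWHAZ had the highest log2 difference among them, at 269 FPKM in control and 362 FPKM with BMH-21, and RPLP0 the lowest, at 2236 and 2157 FPKM.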
